A study of Mus musculus with 7 samples.

Results

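The genes described here are Cyp2b9, Cyp2b10 and Cyp2b13, 3 members of the mouse Cyp2b family of cytochrome P450 enzymes, chosen by name among 32451 genes on the array. Each was read by 1 probe, named through the RefSeq accession in the scanner files. There were 7 liver RNA samples of male C57/BJ mice: an HFD group (diet D12331, 3 samples) and a chow group (Provimi Kliba control diet, 4 samples). Diets began at 6 weeks of age and lasted 20 weeks, so that livers were taken at 26 weeks, and no genetic change or drug was part of either group. The labels do not state that each sample was a separate animal, so p-values measure the spread between these samples, which may be technical. In whole-liver RNA, fewer cells of a type and less RNA per cell cannot be told apart.

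CYP2B enzymes sit in the endoplasmic reticulum membrane of hepatocytes and oxidise drugs, steroids and fatty acids with electrons passed on by the reductase Por. Cyp2b10 is the classic phenobarbital-inducible gene of mouse liver, switched on by the nuclear receptor CAR (gene Nr1i3) and to a lesser degree by PXR (Nr1i2). Cyp2b9 and Cyp2b13 are known as female-biased liver genes, held low in males by the pulsatile male pattern of growth hormone acting through Stat5b.

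The promoter windows of Cyp2b9 and Cyp2b13 were nearly the same sequence, and that of Cyp2b10 was not. The windows cover 250 bases before to 50 bases after each annotated start, from RefSeq on build GRCm38.p6, and all 3 genes matched an entry. They are given as a description of the family, and their part in the diet differences was not tested. The Cyp2b9 window lies at chr7:26173159-26173458 and the Cyp2b13 window at chr7:26061245-26061544, both on the plus strand, with capitals at the bases that differ between them. The Cyp2b10 window lies at chr7:25897408-25897707 on the plus strand, with capitals at matches to the TATA-like motif ATAAAA and to the C/EBP-type motif TTGCNNAA.
Cyp2b9: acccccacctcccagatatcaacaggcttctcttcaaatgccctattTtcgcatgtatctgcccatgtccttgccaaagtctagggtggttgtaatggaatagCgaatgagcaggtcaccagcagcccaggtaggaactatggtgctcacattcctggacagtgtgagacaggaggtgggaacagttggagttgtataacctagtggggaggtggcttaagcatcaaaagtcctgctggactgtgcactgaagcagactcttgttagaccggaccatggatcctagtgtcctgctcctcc
Cyp2b13: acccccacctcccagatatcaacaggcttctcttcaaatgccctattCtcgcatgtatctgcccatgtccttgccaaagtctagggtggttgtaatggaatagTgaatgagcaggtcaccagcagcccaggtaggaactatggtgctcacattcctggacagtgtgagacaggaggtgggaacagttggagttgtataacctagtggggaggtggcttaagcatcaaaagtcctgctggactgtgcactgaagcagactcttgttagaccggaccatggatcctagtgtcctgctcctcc
Cyp2b10: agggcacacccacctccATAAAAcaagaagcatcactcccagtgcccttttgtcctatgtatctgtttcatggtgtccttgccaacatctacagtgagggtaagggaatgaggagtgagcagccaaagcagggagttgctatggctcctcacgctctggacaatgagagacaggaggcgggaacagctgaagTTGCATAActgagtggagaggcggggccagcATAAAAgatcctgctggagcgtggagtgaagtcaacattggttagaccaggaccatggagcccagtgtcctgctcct

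The Cyp2b9 and Cyp2b13 windows shared 298 of 300 bases (99.3%). The differences were T48C and C104T, with the Cyp2b9 base first and positions counted from 1 at the 5′ end of the window, which puts them 203 and 147 bases before the start. Cyp2b9 and Cyp2b10 shared 223 of 311 aligned columns (71.7%). Against Cyp2b9, the windows of the other family members Cyp2b19 and Cyp2b23 were 65.9% and 65.0% identical.

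**Figure D1:**
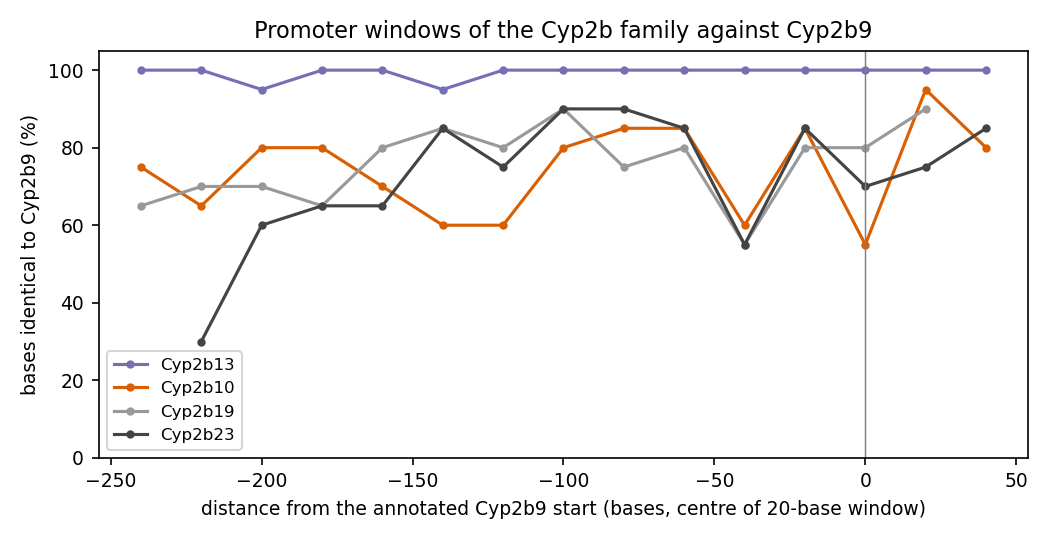
Bases identical to Cyp2b9 in percent (vertical axis) in consecutive windows of 20 bases, against distance in bases from the annotated Cyp2b9 start (horizontal axis), with 1 line each for Cyp2b13, Cyp2b10, Cyp2b19 and Cyp2b23; windows with too few aligned bases are left out. Cyp2b13 stays at or near 100% (99.3% over the whole window), and the other genes lie below it throughout.

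A stretch of 30 bases that holds the TATA-like match in some family members is given for all 5 genes, with capitals at ATAAAA. It lies at chr7:26173369-26173398 for Cyp2b9, chr7:26061455-26061484 for Cyp2b13, chr7:25897619-25897648 for Cyp2b10 and chr7:26757121-26757150 for Cyp2b19, all on the plus strand, and at chr7:26686467-26686496 on the minus strand for Cyp2b23.
Cyp2b9: ggtggcttaagcatcaaaagtcctgctgga
Cyp2b13: ggtggcttaagcatcaaaagtcctgctgga
Cyp2b10: ggcggggccagcATAAAAgatcctgctgga
Cyp2b19: ggcaggttcaccATAAAAgatcctgctgga
Cyp2b23: gacggggccagcATAAAAggttctgctgga

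ATAAAA was absent from the windows of Cyp2b9 and Cyp2b13. It was present in those of Cyp2b10, Cyp2b19 and Cyp2b23, and in 18.5% of 32851 RefSeq windows of the same length. All motifs were searched on both strands. TTGCNNAA occurred in all 5 windows (10.8% of all windows), as TTGCATAA 58 bases before the Cyp2b10 start and as TTGCCAAA 180 bases before the Cyp2b9 and Cyp2b13 starts. The nuclear receptor half-site AGGTCA was found 138 bases before the Cyp2b9 and Cyp2b13 starts and not in the Cyp2b10 window (16.3% of all windows). It was also found 121 bases before the Cyp2b19 start and 164 bases before the Cyp2b23 start. GGCGGG, a GC box, occurred at 2 places in the Cyp2b10 window and in neither of the other 2 members (35.3%). The Cyp2b19 window held it at 1 place. The STAT-type motif TTCNNNGAA (8.30%) and the HNF6-type motif ATTGAT (7.54%) were in none of the 5 windows, and AGAACA, a glucocorticoid receptor half-site, was only in those of Cyp2b19 and Cyp2b23 (19.0%). Annotated starts differ across the family, so the windows are offset against each other.

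The diet comparison rests on the deposited value table of log2 values, and levels within the HFD group rest on the scanner files. The HFD scanner files matched their own table columns (r of at least 0.999915 over 1615 probes). The files labelled chow did not match theirs (r between 0.580 and 0.589), none of the 3 genes was well above background in them, and they enter no comparison. The table lists 1488 of the 32451 genes (4.59%), and at all 1615 of its probes the HFD and chow values do not overlap. A gene is therefore listed because it differed, and its p-value is not independent evidence of a difference. Across the 7 scanner files 57.0% to 66.8% of spots were well above background and 0 were saturated, and the number of arrays limits the precision. The HFD arrays were scanned on 1 day. For the chow values of the table no scan day is known, so diet and scan day cannot be told apart. On the HFD arrays the Y-linked genes Ddx3y and Eif2s3y were well above background on all 3, and Xist, the X-inactivation RNA, on none.

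Livers of HFD mice held far more Cyp2b9 and Cyp2b13 RNA than livers of chow mice, and these were among the largest increases in the table. With all values raised to the detection floor defined below, Cyp2b9 ranked 3 and Cyp2b13 ranked 4 by log2 difference among the 1488 listed genes, although the chow levels of both are then partly or wholly bounds. Both were close to or below the detection limit in chow livers and plainly measurable in every HFD liver, although HFD replicate 3 was much lower than the other HFD replicates. Cyp2b10 is not listed, so it has no diet comparison here.

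Cyp2b9 had table log2 values of 10.12, 9.78 and 7.19 in HFD replicates 1 to 3, against 3.69, 5.09, 3.63 and 5.29 in chow replicates 1 to 4. Every HFD value lay above every chow value, and the lowest HFD value exceeded the highest chow value by 1.90. The group means were 9.03 ± 1.60 in HFD (SD, n = 3) and 4.42 ± 0.89 in chow (SD, n = 4). The log2 difference was 4.61 (SE 0.79), or 24.4-fold, with an adjusted p of 0.0435 by limma. The detection floor, the highest over the HFD arrays of the lowest table value still well above background, was 4.93, and 2 of the 4 chow values lay below it. With those chow values raised to the floor the fold was 15.7.

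Cyp2b13 had table log2 values of 10.30, 9.42 and 6.29 in HFD replicates 1 to 3, against 3.23, 3.84, 3.95 and 3.80 in chow replicates 1 to 4. The groups did not overlap, and all 4 chow values lay below the floor. Cyp2b13 was thus at least 13.4-fold higher on HFD, with HFD at 8.67 ± 2.11 (SD, n = 3) and chow at a measured 3.70 ± 0.32 (SD, n = 4). The fitted log2 difference was 4.97 (SE 0.87), with an adjusted p of 0.0463 by limma. The floors of the other 2 HFD arrays were 4.16 and 3.72, and with them the bound became 22.8-fold and 28.7-fold. Without HFD replicate 3 the bound was 30.6-fold, and over all samples left out in turn it ranged from 10.3-fold to 30.6-fold. For Cyp2b9 with chow raised to the floor the fold ranged from 12.1 to 29.7, the highest again without HFD replicate 3.

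Both listed members were called higher, 2 of the 3 genes, where 1.0% of all genes on the array were called higher and 0.810% lower. Of all genes on the array 2.47% were listed as higher on HFD with groups that do not overlap, and of listed genes 21.8% were called higher. The call for each gene was lost when any 1 sample other than HFD replicate 3 was left out, with limma adjusted p between 0.0904 and 0.205 for Cyp2b9 and between 0.0930 and 0.212 for Cyp2b13. Raising chow to the floor also ended the Cyp2b13 call (adjusted p = 0.0851). Without HFD replicate 3 the log2 differences were 5.53 for Cyp2b9 (adjusted p = 0.0186) and 6.16 for Cyp2b13 (adjusted p = 0.00561), both by limma.

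Markers of other liver cell types also differed with diet. Of 11 macrophage markers on the array 3 were listed, and all 3 were called higher on HFD by limma. Gpnmb, a gene of lipid-laden macrophages, was at least 5.86-fold higher (adjusted p = 0.0253), Ccr2, a receptor of recruited monocytes, was 5.09-fold higher (adjusted p = 0.0323), and the integrin gene Itgam was 1.75-fold higher (adjusted p = 0.0261). Of 10 stellate and matrix markers 4 were listed, all higher on HFD, with 0 called by limma and a median log2 difference of 1.22. Of 15 hepatocyte markers 2 were listed, both lower on HFD. Serpina1a was called (1.43-fold lower, adjusted p = 0.0457 by limma), at a probe dimmer than its brightest on the HFD arrays. These 4 calls were lost without HFD replicate 2 (limma adjusted p between 0.163 and 0.275), and the genes were named after their values were seen. No endothelial, cholangiocyte, adipocyte, lymphocyte or kidney marker was listed. Of all genes on the array 4.59% were listed, 1.0% were called higher and 0.810% lower. The part of these cell types in the diet differences of the Cyp2b genes and of the gene lists given below was not tested.

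**Figure D2:**
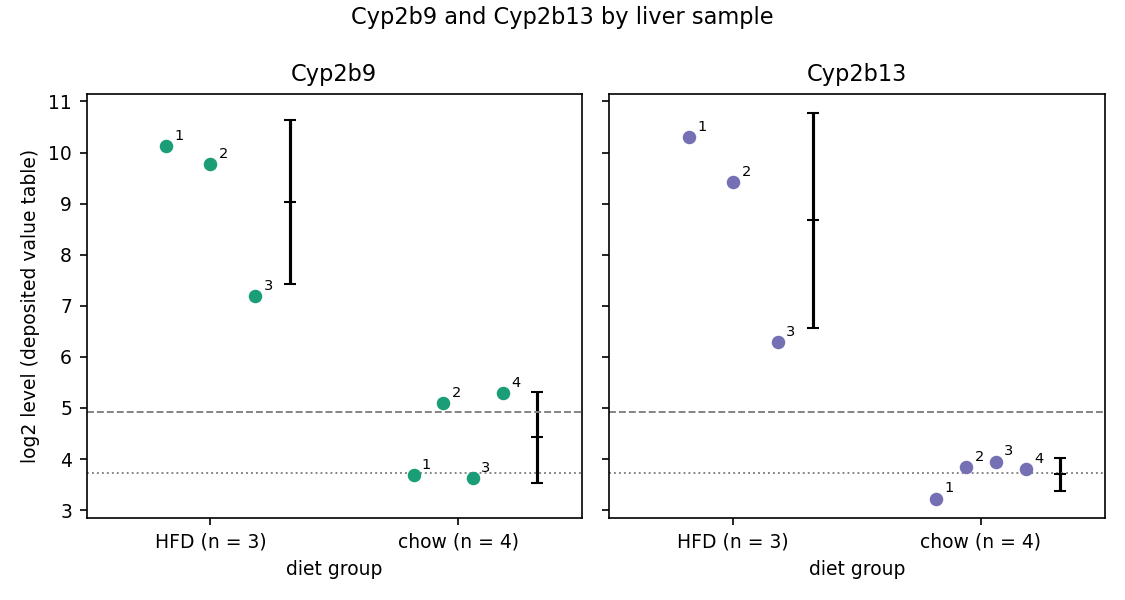
Log2 values of the deposited table (vertical axis) for Cyp2b9 and Cyp2b13 in each numbered sample of the HFD (n = 3) and chow (n = 4) groups, with bars for group mean and SD. The dashed line is the highest detection floor of the HFD arrays (4.93) and the dotted line the lowest (3.72), and HFD replicate 3 sits at 7.19 and 6.29, below the other HFD samples and above every chow sample.

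The size of the increase differed widely between HFD livers. Set against the highest chow value, Cyp2b9 was 28.4-fold, 22.5-fold and 3.74-fold higher in HFD replicates 1, 2 and 3. Set against the floor, Cyp2b13 was at least 41.4-fold, 22.6-fold and 2.58-fold higher in the same replicates. With 1 probe per gene, the SD of Cyp2b13 over the HFD samples was the largest of any listed gene, and 2 genes had a larger SD than Cyp2b9.

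On the HFD scanner arrays all 3 genes were much lower in replicate 3 than in replicates 1 and 2. Replicates 1 and 2 differed by 0.08 on the log2 scale for Cyp2b10, 0.31 for Cyp2b9 and 0.86 for Cyp2b13, after scaling to the 75th percentile of each array. Cyp2b10, the CAR target, had processed signals of 12823, 9443 and 1661 in HFD replicates 1, 2 and 3. Cyp2b9 had processed signals of 1291, 810 and 152, and Cyp2b13 had 1471, 631 and 83.9. Every one of these spots was well above background, and for each gene replicate 3 was the lowest. Cyp2b19 was not well above background on any HFD array, and Cyp2b23 was so on replicate 3 alone, at a signal of 18.4.

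Relative to the 75th percentile of each array, log2 levels of Cyp2b10 were 3.81, 3.73 and 1.09 (mean 2.88 ± 1.55, SD, n = 3). Those of Cyp2b9 were 0.50, 0.19 and -2.35 (mean -0.55 ± 1.57, SD, n = 3), and those of Cyp2b13 were 0.69, -0.17 and -3.22 (mean -0.90 ± 2.05, SD, n = 3). Scaling did not remove the gap between replicate 3 and the other replicates. Levels of different probes are not set against each other here.

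**Figure D3:**
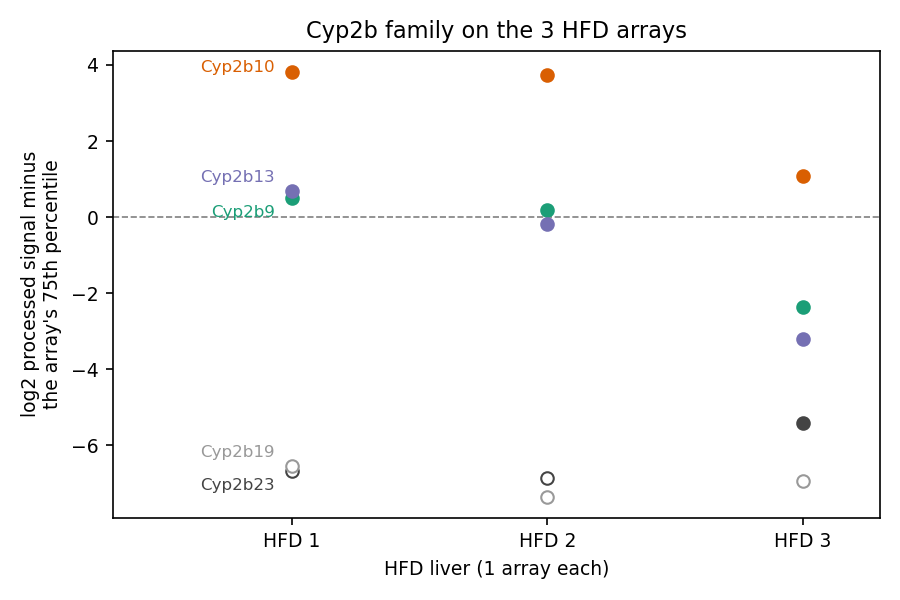
Log2 processed signal minus the array's 75th percentile (vertical axis, dashed line at 0) for 5 Cyp2b genes on the 3 HFD arrays (horizontal axis), with filled points well above background and open points not. Cyp2b9, Cyp2b10 and Cyp2b13 are each lowest in replicate 3, and Cyp2b19 is open on every array.

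Replicate 3 minus the mean of replicates 1 and 2 was -2.68 for Cyp2b10, -2.70 for Cyp2b9 and -3.48 for Cyp2b13 on the log2 scale. In linear terms the mean of replicates 1 and 2 was 6.42-fold, 6.50-fold and 11.1-fold that of replicate 3, in the same gene order. Over 19490 genes detected on 2 or more of the HFD arrays, this gap had a median of 0.05, with -0.69 and 0.69 as its 5th and 95th percentiles. Only 25 genes had a gap as low as that of Cyp2b10, 24 as low as that of Cyp2b9 and 13 as low as that of Cyp2b13. These are descriptions of 1 sample, with no test. The gaps of Cyp2b10 and Cyp2b9 differed by 0.02, while the Cyp2b13 gap was 0.77 wider than that of Cyp2b9.

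Listed female-biased liver genes were also higher on HFD, and most detected ones were also lowest in replicate 3. Of 38 female-biased genes on the array other than the members, 10 were listed (26.3%), where 4.59% of all genes were. All 10 were higher on HFD, and 5 were called higher, where 1.0% of all genes were. The 10 listed genes had a median log2 difference of 2.44, or 2.09 with genes undetected in chow at their bound, beside 0.44 and 0.41 over all listed genes. The latter medians pool 801 higher and 687 lower genes, so they are not the size of a typical increase. Slc22a27 and Slc22a29, organic anion transporter family members, were 11.3-fold (adjusted p = 0.0316) and 7.33-fold (adjusted p = 0.0302) higher on HFD by limma. The lipoprotein receptor gene Vldlr was 10.3-fold higher (adjusted p = 0.0253), and the fatty acid transporter gene Cd36 was 5.60-fold higher (adjusted p = 0.0284), both by limma. The calls of these 4 genes, and of the 8 other called genes named below, were lost without HFD replicate 2 (limma adjusted p between 0.0903 and 0.232).

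On the HFD arrays, 31 of the female-biased genes were detected, and 24 of them (77.4%) were lowest in replicate 3, where 27.8% of all detected genes were lowest. The median gap of the list was -0.71. Cyp7a1, the rate-limiting enzyme of bile acid synthesis, had a gap of -2.67 and Acot3, a peroxisomal thioesterase, one of -2.44, both named after their values were seen. Cux2, a female-specific repressor of male-biased genes, was not well above background on any HFD array.

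Most detected male-biased genes were highest in replicate 3. Of 37 detected, 31 (83.8%) were highest in replicate 3, where 41.0% of all detected genes were highest, and their median gap was 0.94. Of the same 37, 29 were lowest in replicate 1, a share that was not counted over all genes. Hsd3b5, a male-specific steroid dehydrogenase, had log2 levels of -3.54, -0.28 and 5.07 in HFD replicates 1, 2 and 3, a gap of 6.98. Slco1a1, an organic anion transporter, had -1.0, 1.07 and 2.92, and both were named after their values were seen. Across diets, 6 of 39 male-biased genes were listed (15.4%), where 4.59% of all genes were. All 6 were lower on HFD, with a median of -1.11. Of these 1 was called, the glutathione S-transferase gene Gstp1, which was 2.27-fold lower (adjusted p = 0.0249 by limma). Of all genes on the array 0.810% were called lower.

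CAR and PXR target genes did not share a direction. Of 42 on the array, 12 were listed (28.6%), where 4.59% of all genes were. Of the 12, 7 were higher and 5 lower on HFD, with 4 called in each direction. Of all genes on the array 1.0% were called higher and 0.810% lower. Thrsp, a regulator of lipid synthesis, was 5.27-fold higher (adjusted p = 0.0232), while Cyp2c38 was 2.92-fold lower (adjusted p = 0.0292) and the carboxylesterase gene Ces2a 2.46-fold lower (adjusted p = 0.0354), all by limma. Cyp1a1, an aryl hydrocarbon receptor target, was at least 1.25-fold higher, with 2 of 3 HFD arrays well above background (adjusted p = 0.0190 by limma), and its call was lost with chow raised to the floor (adjusted p = 0.786). In replicate 3, 16 of 39 detected targets (41.0%) were lowest and 16 (41.0%) were highest, with a median gap of 0.01. Of all detected genes 27.8% were lowest and 41.0% highest in replicate 3.

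**Figure D4:**
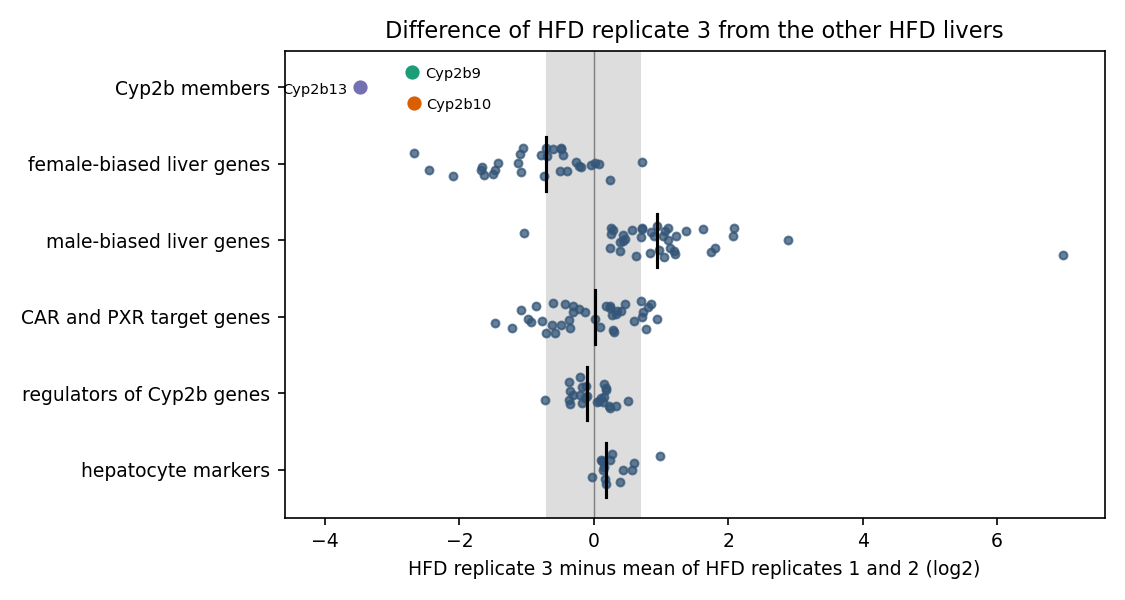
HFD replicate 3 minus the mean of HFD replicates 1 and 2 in log2 units (horizontal axis), 1 point per detected gene, for the Cyp2b members and 5 gene lists, with black bars at list medians and a grey band from the 5th to the 95th percentile of all detected genes (-0.69 to 0.69). The members lie between -3.48 and -2.68, and the medians are -0.71 for female-biased genes, 0.94 for male-biased genes and 0.01 for CAR and PXR targets.

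Nuclear receptors and liver factors that regulate Cyp2b genes were listed about as often as all genes. Of 25 such regulators, 1 was listed (4.0%), where 4.59% of all genes on the array were listed. The listed gene, the forkhead factor Foxa3, was 1.82-fold lower on HFD (adjusted p = 0.0339 by limma). On the HFD arrays the CAR gene Nr1i3 had log2 levels of 2.95, 3.52 and 2.88, and the PXR gene Nr1i2 had 2.39, 2.51 and 2.24. None of the 25 had a gap below -1, which only 1.88% of all detected genes had. Of 9 genes of CAR retention and signalling, 1 was listed, the chaperone gene Hsp90aa1, with a log2 difference of -0.75 that was not called (adjusted p = 0.0815 by limma).

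Of 19 genes of growth hormone and prolactin signalling and sex-biased regulation, 2 were listed (10.5%), where 4.59% of all genes were. Igfbp3, a carrier of insulin-like growth factor, was 2.23-fold higher on HFD (adjusted p = 0.0483 by limma). The estrogen receptor gene Esr1 was not called (adjusted p = 0.0539 by limma), with all 3 HFD values of its listed probe below the detection floor. A brighter Esr1 probe was well above background on all 3 HFD arrays, with log2 levels of -2.49, -2.22 and -1.93. Stat5b had log2 levels of 1.98, 1.96 and 2.35 on the HFD arrays, and Bcl6, a male-biased repressor, had 3.49, 1.06 and 3.47. Bcl6 was thus low in replicate 2 and not in replicate 3. None of 14 genes for redox partners and heme supply was listed, where 4.59% of all genes were. Por had levels of 4.57, 5.81 and 4.75.

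Cyp2 genes of the same cluster on chromosome 7 differed in how replicate 3 compared with the other HFD replicates. In annotation order Cyp2s1, Cyp2b10, Cyp2b13 and Cyp2b9 are followed, past Vmn1r184, by Cyp2a4, a female-biased steroid hydroxylase. Cyp2a4 had log2 levels of 6.23, 6.44 and 5.21, a gap of -1.13. Farther on, Cyp2a22 had a gap of -1.43, whereas Cyp2a12 (6.38, 6.48 and 6.62) and Cyp2f2 (7.41, 7.51 and 7.85) were highest in replicate 3. Of the 7 Cyp2 genes of the cluster outside the Cyp2b family, none was listed in the table, where 4.59% of all genes were.

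**Figure D5:**
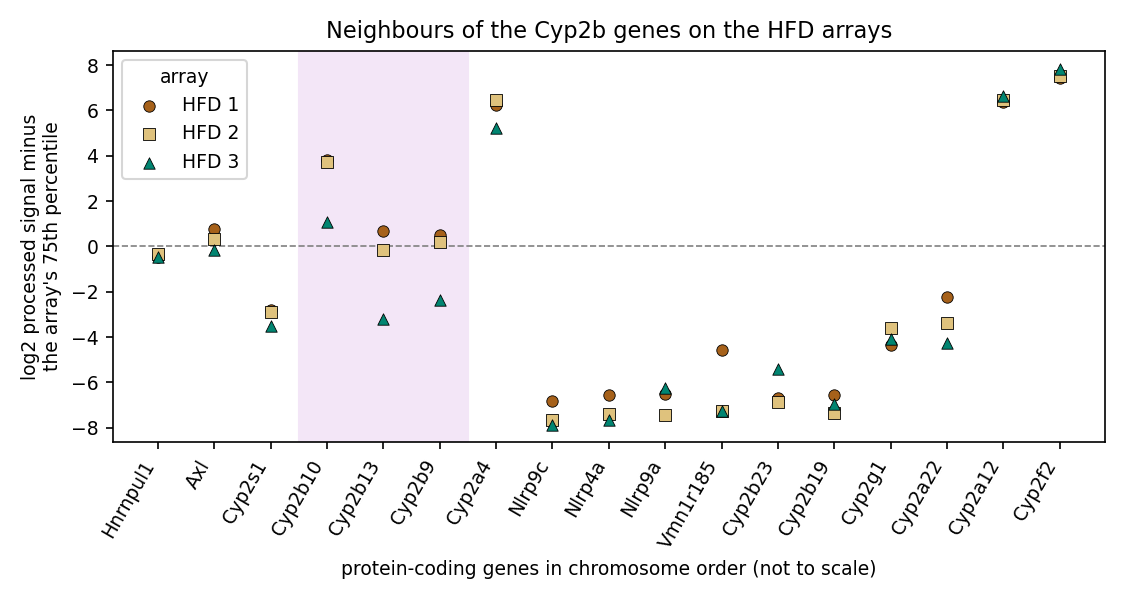
Log2 processed signal minus the array's 75th percentile (vertical axis) on each of the 3 HFD arrays, for genes in their order along chromosome 7 (horizontal axis, not to scale), with the 3 Cyp2b members shaded. Replicate 3 lies well below the other arrays at the members, is lower at Cyp2a4 (5.21, against 6.23 and 6.44) and is highest at Cyp2a12 and Cyp2f2.

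Likeness of pattern is given as a description over few samples. Over the 7 table columns, genes among those most like Cyp2b9 were Ly6g6d (r = 0.996), Slc50a1 (0.995), Bri3 (0.994) and Pigp (0.993). Ccdc80 (r = 0.997), Megf6 (0.996), Unc5b (0.995), Col3a1 (0.994) and Comtd1 (0.994) were most like Cyp2b13. The 2 members had r = 0.973 with each other, and all these genes share the separation of HFD from chow columns on which the table was selected. Over the 3 HFD arrays, by distance between centred log2 levels, the named gene nearest to Cyp2b9 was Rad51b (0.143), with Cyp2b10 at rank 3 (0.165). The nearest named gene to Cyp2b13 was Sdcbp2 (0.201), with Gipc2 next (0.573).

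Cell type markers differed between the HFD livers. Hepatocyte markers were detected for 15 of 15 genes. Linear levels were summed per list and the sum taken as log2, so the brightest genes weigh most. For hepatocyte markers this was 12.12, 12.68 and 12.60 in HFD replicates 1, 2 and 3. Alb alone was at 9.11, 9.89 and 9.78, and Apoa1 at 6.96, 7.28 and 7.24. By the same measure macrophage markers (11 detected) were at 6.86, 5.82 and 5.88, and stellate and matrix markers (10 detected) at 6.81, 6.72 and 6.37. Cholangiocyte markers (6 detected) were at 3.18, 2.13 and 1.35. With 75th-percentile scaling, replicate 3 was lowest for 8 of 10 stellate and matrix markers and for 5 of 6 cholangiocyte markers. It was also lowest for 7 of 11 macrophage markers (5 without scaling) and for 5 of 7 endothelial markers (4 without scaling). For lymphocyte markers the count was 2 of 7, and 27.8% of all detected genes were lowest there. Replicate 3 was lowest for none of the 15 hepatocyte markers with 75th-percentile scaling, for 1 without scaling and for 5 under quantile normalization. With 75th-percentile scaling, replicate 1 was lowest for all 15 hepatocyte markers. The part of these differences in the Cyp2b values was not tested.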

How the data were processed

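Per the labels' protocols, Cy3-labelled liver RNA was hybridised to Agilent arrays, 1 sample per array. The scanner files hold each spot's processed signal, an intensity on a linear scale, made by the authors with Feature Extraction (10.7.3.1 per the file headers, 9.1 per the submitters' processing notes). The deposited value table holds log2 values. How it was normalized, and how its probes were selected, is not given in the sources used here.

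Scanner intensities were taken as log2 minus each array's 75th percentile. For diet, 1 probe per gene (highest mean) was fitted with limma 3.58.1 in R 4.3.3, two-sided, without a block. Variances were moderated toward a prior (0.0363 with 2.14 df) from 19499 genes on the HFD arrays. Benjamini-Hochberg adjustment ran over 32451 genes, with unlisted genes given a p of 1, and calls used adjusted p under 0.05. The fit was tested on simulated data. Per list, up to 4 called genes with the largest difference were named, or else the listed gene with the smallest p, beside regulators and liver genes named whatever their values and genes nearest in pattern, of which 1 is not reported here. The members and lists were chosen with earlier results of these data known.

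Alternatives were another variance prior, adjustment over listed genes, the mean of probes, values raised to the floor, a filter on dim genes, other scalings, a replicate block and leaving out each sample. The normexp alternative used median signals, since these files give no mean signal. Probe and protein sequences were not used here, and cross-reading between Cyp2b probes was not tested.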

Additional observations from a re-analysis of the deposited data

How the results depend on the processing

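HFD and chow values do not overlap at any listed probe, so that direction was fixed by the selection and its constancy across alternatives says nothing about stability. Deviations of same-numbered HFD and chow samples correlated at r of -0.10, 0.13 and 0.01, and those of differently numbered samples at -0.15 to 0.14. This gave no sign that the numbers pair the samples, but so few correlations cannot exclude it. With the replicate block the log2 differences were 4.90 for Cyp2b9 (adjusted p = 0.222) and 5 for Cyp2b13 (adjusted p = 0.290), and limma called 0 genes higher and 0 lower, against 801 and 687 at an unadjusted p under 0.05. Raising values to the floor gave 3.75 for Cyp2b13 (adjusted p = 0.0851). Leaving out 1 sample gave 4.06 to 5.53 for Cyp2b9 and 4.15 to 6.16 for Cyp2b13, and 0 to 265 genes called higher and 0 to 227 called lower, with 0 of each without chow replicate 1. Fewer samples entered those fits. With a variance prior from the listed genes, 552 genes were called higher and 474 lower, and with adjustment over listed genes 801 and 687, against 325 and 263. The HFD levels shift with the scale: for Cyp2b9, Cyp2b10 and Cyp2b13 in that order, 3.05, 6.49 and 2.71 under median scaling, 9.09, 12.53 and 8.74 under quantile normalization, and 9.08, 12.52 and 8.74 without scaling. The gap of HFD replicate 3 ranged over scalings from -2.75 to -2.25 for Cyp2b9, -2.73 to -2.55 for Cyp2b10 and -3.52 to -2.64 for Cyp2b13. Chow levels near background limit both folds.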
